A study of Oryza longistaminata with 12 samples.

Results

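Roots that received ammonium themselves were compared according to what the root of their partner received. The plants were ramet pairs of *Oryza longistaminata*, a wild rice of wetlands (strain IRGC10404). Ramets are the young plants that grow from neighbouring nodes of a rhizome and stay joined by it. In +N split pairs the sampled root stood in 2.5 mM NH4Cl and the root of its partner in 0 mM, and in +N pairs both roots stood in 2.5 mM. A further 2 groups, each of 3 libraries, had no ammonium of their own, with partners at 0 mM in −N and at 2.5 mM in −N split. All roots were taken after 24 h. Before that all plants had grown in water culture with NH4Cl as their only nitrogen source, and excised pairs of young ramets with a few leaves were used. Members were chosen by their labels alone, which gave 3 +N split and 3 +N libraries, 6 of the 12 in the series. The question was which genes of a supplied root differed when only its partner was deprived.

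In roots, ammonium is taken up by ammonium transporters and built into glutamine by glutamine synthetase. Glutamate synthase then passes the nitrogen to glutamate, from which aminotransferases move it on to alanine, aspartate and other amino acids. The carbon acceptors come from glycolysis and from the enzymes around phosphoenolpyruvate, oxaloacetate and malate. Rice of wet soils takes up much of its nitrogen as ammonium, and its roots are also known for fermentation when oxygen is short.

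Counted reads per library lay between 40481909 and 54706077 in the 6 supplied libraries. Of 29335 gene models, 25005 had enough reads to be tested in a joint fit of the 12 libraries. Levels are given as CPM, read counts relative to the library total, scaled between libraries by the trimmed mean of M values, and differences as the log2 fold change (log2 FC) of +N split over +N with its standard error (SE). Calls are from edgeR's quasi-likelihood test at a Benjamini-Hochberg adjusted p under 0.05. For 1 gene measured in 3 roots of each group, the smallest p of an exact permutation test is 0.1, so each call rests on a spread shared across genes. The study's statistics section states that its graphs come from independently prepared pairs, and neither it nor the labels say so of the sequenced libraries, so p-values measure the spread between these samples. In bulk RNA, more cells of a type and more RNA per cell cannot be told apart. Gene names and descriptions come from the study's own tables as far as they could be read. A gene list therefore holds only genes that the study had listed in some comparison of these libraries. Those found in its table of genes higher in +N split roots were chosen on these libraries, so their direction is no independent evidence. Members outside that table lack the genes the study called higher, which pulls their medians and counts down. They are therefore no independent check either. List medians are set beside the median over all genes, which was −0.02. Counts of members above 0 are set beside the 45.8% of all genes tested whose log2 fold change was above 0.

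Supplied roots with a deprived partner had more genes at higher than at lower levels. In +N split roots 170 genes were higher than in +N roots, 0.680% of the genes tested, and 26 genes were lower, 0.104%. The log2 fold changes of the higher genes ran from 0.35 to 2.84 with a median of 0.77, and 50 of them changed at least 2-fold. Those of the lower genes ran from −5.65 to −0.45 with a median of −0.83, and 5 of them changed at least 2-fold. The groups overlapped in none of the 196 genes. Over all genes, the 3 +N split values lay above the 3 +N values in 8.71% and below them in 7.79%. At an unadjusted p under 0.05 in the same test, 1564 of the 25005 genes were higher and 1499 lower. DESeq2's Wald test called 568 of 25005 genes higher and 231 lower. EdgeR's exact test on the 6 supplied libraries called 441 of 24553 higher and 121 lower. List counts by these measures are to be read beside these totals.

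The genes that were higher stood at a median of 57.2 CPM (quartiles 27.9 and 179 CPM), those that were lower at 22.3 CPM, and all genes tested at 13.2 CPM. The scaled CPM of the 170 genes summed to 6.28% to 7.58% of the nominal CPM total in +N split and to 3.22% to 3.91% in +N libraries. Scaling factors were 0.92 to 0.97 in +N split and 0.98 to 0.99 in +N libraries. With factors under 1 the shares of reads were lower than these values, more so in +N split libraries. For 91 of them the highest +N split value was that of replicate 3, and for 111 the highest +N value was that of replicate 2. The calls leaned on single libraries. Without +N split replicate 3 the same test called 6 higher and 0 lower genes, while 1312 and 1096 had an unadjusted p under 0.05. Without +N replicate 3 it called 7 and 2, without +N split replicate 2 31 and 1, and without +N replicate 1 57 and 39. Leaving out +N split replicate 1 gave 116 and 14, and leaving out +N replicate 2 gave 116 and 12. In each of these 6 fits all 170 genes kept a log2 fold change above 0 and all 26 one below 0. Since the groups overlapped in none of these genes, leaving out a library could hardly turn their direction, so this is no further evidence. Of the 196 genes, 55 were called in none of the 6 fits and 5 in all of them. The 5 were *OlAK*, *OlASADH*, the alanine aminotransferase OL03G000581, plant cysteine oxidase 2 (OL09G001188) and a haloacid dehalogenase-like hydrolase, OL01G003097. The hydrolase had 39.7, 37.9 and 37.0 CPM in +N split roots and 18.5, 22.7 and 19.1 CPM in +N roots (log2 FC 0.93, SE 0.10, adjusted p = 0.00278).

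Of the steps that take up and fix ammonium, the glutamate synthase step was the one that passed edgeR's quasi-likelihood test on the 12 libraries. *OlNADH-GOGAT2* (OL05G002363), which makes glutamate from glutamine and 2-oxoglutarate, had 579, 623 and 710 CPM in +N split roots and 114, 186 and 135 CPM in +N roots. The 3 +N split libraries lay close together and far above all +N libraries (log2 FC 2.14, SE 0.33, adjusted p = 0.0144). The ammonium transporter OL02G002258, which carries both the names *OlAMT1;2* and *OlAMT1;3*, had 47.6, 40.1 and 76.2 CPM in +N split and 20.2, 24.0 and 17.1 CPM in +N roots (log2 FC 1.42, SE 0.30, adjusted p = 0.0552). Its groups did not overlap, replicate 3 held both the highest +N split and the lowest +N value, and the gene missed the threshold. It passed in 4 of the 7 alternatives of test, filter, scaling or block.

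Glutamine synthetase genes differed among themselves. *OlGS1;2* (OL03G000840) had 1696, 1575 and 1841 CPM in +N split and 1026, 1220 and 979.7 CPM in +N roots (log2 FC 0.66, adjusted p = 0.0941). The gene with the next identifier, OL03G000841, carries the same description and had 740, 664 and 818 CPM in +N split and 407, 544 and 416 CPM in +N roots (log2 FC 0.70, adjusted p = 0.143). *OlGS1;1* (OL02G003003) had 729, 643 and 621 CPM against 776, 645 and 814 CPM in +N roots, groups that overlapped (log2 FC −0.17, adjusted p = 0.598). None of these 3 genes passed that test. In the 7 alternatives of test, filter, scaling or block, *OlGS1;2* and OL03G000841 each passed in 2 and *OlGS1;1* in 0. Reads of like copies could be split between these genes by the counting.

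Of the 10 genes of ammonium uptake and assimilation tested, 1 was higher and 0 were lower, and the median log2 fold change was 0.25. DESeq2's Wald test and edgeR's exact test on the 6 supplied libraries each called 4 higher and 0 lower. The 6 that stand outside the study's table of higher genes had a median of −0.24, with 1 above 0, OL02G001811 at 0.69 without a call. Among them were both glutamate dehydrogenases, OL03G003426 at −0.25 and OL04G001869 at −0.23, and the asparagine synthetase OL03G001277 at −0.32, with adjusted p from 0.31 to 0.585. The glutamate synthase call was lost without +N split replicate 2 or 3 and without +N replicate 1 or 3 (adjusted p up to 0.0764).

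Nitrate reductase genes were higher although nitrogen was given as ammonium. These enzymes reduce nitrate to nitrite. OL08G001450 had 37.5, 37.2 and 44.4 CPM in +N split and 21.7, 21.8 and 21.4 CPM in +N roots (log2 FC 0.88, SE 0.14, adjusted p = 0.0181). OL08G001452, a gene of the same description 2 identifiers further on, had 28.0, 29.6 and 35.4 CPM in +N split and 16.25, 17.46 and 16.58 CPM in +N roots (log2 FC 0.89, adjusted p = 0.0209). OL02G000926 had 15.2, 18.8 and 21.1 CPM in +N split and 10.40, 10.29 and 10.03 CPM in +N roots (log2 FC 0.84, adjusted p = 0.0229). In all 3 the +N values varied little. The fourth gene, OL02G003220, had 44.9, 74.7 and 64.4 CPM in +N split and 43.4, 30.1 and 47.2 CPM in +N roots, groups that overlapped (log2 FC 0.61, adjusted p = 0.202). Thus 3 of 4 genes passed, all 3 from the study's table, with a list median of 0.86. None of the 3 passed without +N split replicate 2 or 3 or without +N replicate 1 or 3, and OL02G000926 was also lost without +N replicate 2. The 3 genes may share reads, since the way reads of like copies were counted is not known.

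**Figure D1:**
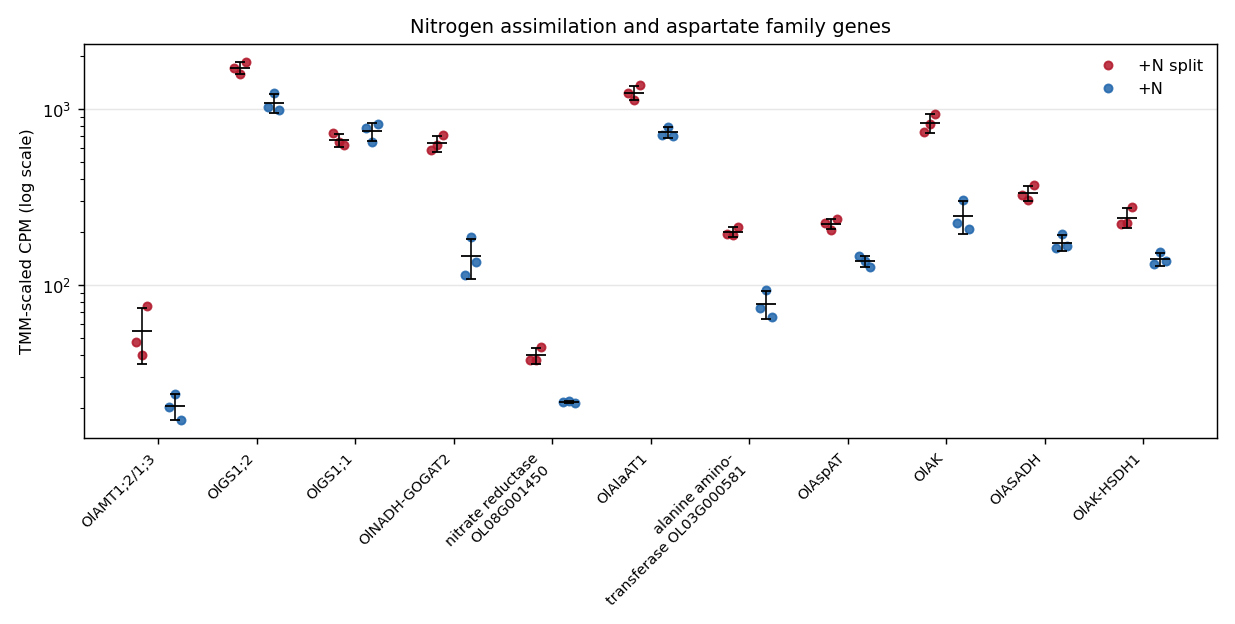
Normalized CPM on a log scale (vertical axis) of nitrogen assimilation and aspartate family genes in the 3 +N split (red) and 3 +N (blue) libraries. Points are libraries, bars are mean ± SD. *OlNADH-GOGAT2* and *OlAK* show the widest gaps between the groups, with log2 fold changes of 2.14 and 1.76, and *OlGS1;1* is the one gene shown whose groups overlap.

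Genes that move amino groups and build the aspartate family of amino acids gave 11 of the calls. Of 24 such genes tested, 11 were higher and 0 lower, with a median log2 fold change of 0.47. With single libraries left out, between 3 and 8 passed, the fewest without +N split replicate 3 and without +N replicate 3. The 11 genes outside the study's table had 0 calls and a median of −0.05, with 4 above 0.

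The aspartate kinase *OlAK* (OL03G003830) opens the pathway from aspartate to lysine, threonine and methionine. It had 738, 815 and 934 CPM in +N split and 224, 305 and 208 CPM in +N roots, a gap wider than the spread within either group (log2 FC 1.76, SE 0.18, adjusted p = 0.00278). *OlASADH* (OL03G003219), the aspartate semialdehyde dehydrogenase of the following step, had 322, 303 and 369 CPM in +N split and 162, 193 and 165 CPM in +N roots (log2 FC 0.94, SE 0.10, adjusted p = 0.00278). *OlAK-HSDH1* (OL08G000963), a fused aspartate kinase and homoserine dehydrogenase, had 221, 224 and 276 CPM in +N split and 131, 154 and 136 CPM in +N roots (log2 FC 0.78, adjusted p = 0.0144). All 3 stood apart between the groups, and the third lost its call without +N split replicate 3 and without +N replicate 1 or 3. A second gene described as a bifunctional aspartokinase and homoserine dehydrogenase, OL09G000328, overlapped, with 104, 90.4 and 106 CPM in +N split and 115, 88.4 and 103 CPM in +N roots (log2 FC −0.03, adjusted p = 0.965).

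Both alanine aminotransferase genes were higher. These enzymes join glutamate and pyruvate to give alanine. OL03G000581 had 195, 191 and 213 CPM in +N split and 74.3, 93.8 and 65.7 CPM in +N roots (log2 FC 1.36, SE 0.15, adjusted p = 0.00507). *OlAlaAT1* (OL10G000682) had 1221, 1120 and 1354 CPM in +N split and 712, 789 and 698 CPM in +N roots (log2 FC 0.75, SE 0.11, adjusted p = 0.0132). It lost the call without +N split replicate 3 or without +N replicate 3 (adjusted p up to 0.0679), while OL03G000581 kept it in every such fit.

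Aspartate aminotransferases make aspartate from oxaloacetate. *OlAspAT* (OL06G001607) had 223, 206 and 235 CPM in +N split and 146, 136 and 126 CPM in +N roots (log2 FC 0.70, adjusted p = 0.0275). OL02G003394 was at 158, 161 and 172 CPM in +N split and at 119, 124 and 114 CPM in +N roots (log2 FC 0.46, adjusted p = 0.019). OL01G003115 had 784, 715 and 809 CPM in +N split and 630, 639 and 560 CPM in +N roots, without overlap and without a call (log2 FC 0.34, adjusted p = 0.176). *OlAspAT* lost its call without any one of the 6 libraries, with adjusted p from 0.055 to 0.111.

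Other aminotransferases went in several directions. The class V aminotransferase OL01G002909 had 49.7, 53.5 and 71.3 CPM in +N split and 16.7, 19.8 and 17.3 CPM in +N roots (log2 FC 1.70, SE 0.23, adjusted p = 0.0116). Class IV enzymes include the branched-chain aminotransferases, and 2 of them passed at 0.50 (OL02G001081) and 1.77 (unmappedContigsG001487). Also called was the branched-chain aminotransferase OL04G001978 at 0.57. In contrast, 3 class III aminotransferases with near identifiers had lower values in +N split roots and no call. OL05G001805 was at 7.58, 9.65 and 7.88 CPM in +N split and at 13.7, 22.7 and 14.5 CPM in +N roots (log2 FC −1.02, adjusted p = 0.0585). OL05G001819 and OL05G001820 had log2 fold changes of −0.77 and −0.96 with adjusted p of 0.197 and 0.125.

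The enzymes of glycolysis, which break hexose phosphates down to pyruvate, were higher over many steps by modest amounts. Of 41 genes tested, 16 were higher and 0 lower, 33 had a log2 fold change above 0, and the median was 0.39. Of the 26 outside the study's table, 18 were above 0 with a median of 0.16. The 1 called among them was the phosphoglycerate kinase OL02G000454 (1146, 1183 and 1388 CPM in +N split and 908, 933 and 893 CPM in +N, log2 fold change 0.44, adjusted p = 0.0494). Without +N split replicate 3 or without +N replicate 3, 0 of the 16 passed, and without +N split replicate 2, 6 did.

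At the step that adds another phosphate to fructose 6-phosphate, 4 genes were called. The phosphofructokinase *OlPFK5* (OL05G002151) uses ATP for this step and had 401, 445 and 555 CPM in +N split and 199, 237 and 190 CPM in +N roots (log2 FC 1.16, SE 0.19, adjusted p = 0.0162). A second phosphofructokinase, OL05G000593, had 197, 192 and 226 CPM in +N split and 88.4, 112 and 83.9 CPM in +N roots (log2 FC 1.11, adjusted p = 0.0267). The 2 subunits of the enzyme that uses pyrophosphate for this step moved alike: *OlPFPB* (OL06G000911) had 1457, 1443 and 1649 CPM in +N split and 770, 960 and 705 CPM in +N roots (log2 FC 0.90, adjusted p = 0.0116). Of *OlPFP1α3* (OL08G000976) the levels were 1151, 1142 and 1340 CPM in +N split and 620, 718 and 568 CPM in +N roots (log2 FC 0.93, adjusted p = 0.0183). The other 8 genes described as phosphofructokinases or pyrophosphate-dependent phosphotransferases had log2 fold changes from −0.46 to 0.34 and no call.

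Around the hexose and triose phosphates, *OlGPI* (OL03G003308) had 492, 522 and 561 CPM in +N split and 314, 342 and 279 CPM in +N roots (log2 FC 0.75, adjusted p = 0.0116). The aldolase *OlALDC1* (OL01G004030) had 5346, 5431 and 6581 CPM in +N split and 2985, 3446 and 3099 CPM in +N roots (log2 FC 0.86, adjusted p = 0.022). *OlTPI1* (OL01G000318) had 1987, 2082 and 2192 CPM in +N split and 1204, 1355 and 1020 CPM in +N roots (log2 FC 0.81, adjusted p = 0.0116). In the 12 libraries *OlTPI1* had 1.02 to 1.1 times the level of unmappedContigsG001015, a gene of the same description on an unplaced contig (1907, 1936 and 1994 CPM in +N split and 1138, 1309 and 989.9 CPM in +N roots), so reads may be shared between them. Of the 196 called genes, 12 form 6 such pairs, with equal descriptions and levels within 15% of each other in every library, among them the phosphoglucomutases OL03G002878 and OL03G002890 at 0.65 and 0.58.

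Called genes of lower glycolysis ranged in their change. *OlGAPC1* (OL02G002091), a cytosolic glyceraldehyde 3-phosphate dehydrogenase, had 7434, 7711 and 9171 CPM in +N split and 4223, 4742 and 3914 CPM in +N roots (log2 FC 0.92, SE 0.16, adjusted p = 0.0244). *OlENO1* (OL10G000304), an enolase, was at 2969, 3105 and 3589 CPM in +N split and at 2385, 2427 and 2070 CPM in +N roots (log2 FC 0.49, adjusted p = 0.0454). None of the 3 genes described as pyruvate kinases was called, with log2 fold changes of −0.16, −0.02 and 0.43.

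Enzymes around phosphoenolpyruvate and pyruvate held some of the largest increases, and those of the citrate cycle held none. Of 18 genes tested, 4 were higher and 0 lower, and the median log2 fold change was 0.07. *OlPPDKA* (OL03G002044), a pyruvate orthophosphate dikinase that interconverts pyruvate and phosphoenolpyruvate, had 5278, 5411 and 6304 CPM in +N split and 1209, 1946 and 1419 CPM in +N roots (log2 FC 1.89, SE 0.32, adjusted p = 0.0208). Phosphoenolpyruvate carboxykinase, which makes phosphoenolpyruvate from oxaloacetate, was called for 2 genes with consecutive identifiers. OL10G000420 had 421.5, 574 and 603.5 CPM in +N split and 102.5, 163 and 95.0 CPM in +N roots (log2 FC 2.15, SE 0.30, adjusted p = 0.0116).

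OL10G000421 had 19.0, 23.0 and 23.1 CPM in +N split and 4.05, 6.66 and 4.74 CPM in +N roots (log2 FC 2.07, SE 0.26, adjusted p = 0.0116). The ratio between the groups was thus close to that of its neighbour, and shared reads were not tested. Another gene of this description, OL03G001047, had 5521, 6670 and 6592 CPM in +N split and 4915, 5003 and 4465 CPM in +N roots, without a call (log2 FC 0.39, adjusted p = 0.23). The malic enzyme OL01G000594, which turns malate into pyruvate, had 1291, 1305 and 1362 CPM in +N split and 575, 844 and 578 CPM in +N roots (log2 FC 0.99, SE 0.14, adjusted p = 0.0132).

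A second malic enzyme, OL05G000564, had 474, 476 and 536 CPM in +N split and 159, 191 and 147 CPM in +N roots, and missed the threshold (log2 FC 1.58, SE 0.33, adjusted p = 0.0525). *OlPPC4* (OL01G000707), a phosphoenolpyruvate carboxylase, which makes oxaloacetate, had 21.7, 21.7 and 27.8 CPM in +N split and 13.1, 15.4 and 14.2 CPM in +N roots (log2 FC 0.74, adjusted p = 0.074). The carboxylases OL02G000950 and OL08G001025 had log2 fold changes of −0.10 and −0.80, with adjusted p of 0.775 and 0.0926. The citrate synthase, aconitate hydratase, isocitrate and malate dehydrogenase genes had log2 fold changes from −0.27 to 0.25 and no call. The 12 genes of the list outside the study's table had a median of −0.03 with 3 above 0. Without +N split replicate 3 or without +N replicate 3, 0 of the 4 passed.

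Genes of fermentation and of the low-oxygen response were among the higher genes. Of 19 genes tested, 6 were higher and 0 lower, 18 had a log2 fold change above 0, and the median was 0.62. Of the 6 outside the study's table, 5 were above 0 with a median of 0.18 and none was called. DESeq2's Wald test called 12 of the 19 higher, and edgeR's exact test on the 6 supplied libraries called 13. Over all genes, these tests called 568 of 25005 and 441 of 24553 higher, more than the main test did. The summed level of the 19 genes was 21100 to 28240 CPM in +N split and 10050 to 12770 CPM in +N libraries.

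Alcohol dehydrogenase, the last step of ethanol fermentation, was called for 3 genes. The gene on an unplaced contig, unmappedContigsG000545, had 5245, 5554 and 7483 CPM in +N split and 2369, 2981 and 2238 CPM in +N roots (log2 FC 1.27, SE 0.19, adjusted p = 0.0132). OL11G000556 had 3853, 4069 and 5399 CPM in +N split and 1527, 2058 and 1493 CPM in +N roots (log2 FC 1.39, SE 0.22, adjusted p = 0.015). Its neighbour by identifier, alcohol dehydrogenase 1 (OL11G000555), had 1337, 1643 and 1905 CPM in +N split and 710, 818 and 567 CPM in +N roots (log2 FC 1.22, adjusted p = 0.0288). In all 3 the highest +N split library was replicate 3. Without that library none of the 3 passed, nor did any without +N replicate 3, and those with neighbouring identifiers were also lost without +N split replicate 2 or +N replicate 1.

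Pyruvate decarboxylase, the step before, had no call in edgeR's quasi-likelihood test, with a large difference in 1 gene. OL05G001771 had 4127, 3981 and 5174 CPM in +N split and 877, 1477 and 1027 CPM in +N roots (log2 FC 1.97, SE 0.43, adjusted p = 0.0588). OL03G001290 had 1214, 1100 and 1492 CPM in +N split and 824, 948 and 774 CPM in +N roots (log2 FC 0.58, adjusted p = 0.167). The gene before OL05G001771 by identifier, OL05G001770, has no description and was called, at 10.4, 8.36 and 9.57 CPM in +N split and 1.25, 2.20 and 1.43 CPM in +N roots (log2 FC 2.54, SE 0.37, adjusted p = 0.0132). It was picked out after its values were seen.

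Plant cysteine oxidases use oxygen to mark transcription factors of the low-oxygen response for breakdown, a role shown in Arabidopsis. Of the 5 genes that the tables describe as plant cysteine oxidase or as DUF1637, an earlier database name of the same family, 5 had a log2 fold change above 0 and 2 were called. Plant cysteine oxidase 2 (OL09G001188) had 25.1, 20.7 and 22.4 CPM in +N split and 7.79, 8.41 and 7.86 CPM in +N roots (log2 FC 1.503, SE 0.15, adjusted p = 0.00278). The DUF1637 gene unmappedContigsG001274 had 48.7, 43.8 and 62.7 CPM in +N split and 15.1, 22.2 and 16.2 CPM in +N roots (log2 FC 1.54, SE 0.27, adjusted p = 0.0229), and lost its call without +N split replicate 2 or 3 or +N replicate 1 or 3. The other 3 had log2 fold changes of 0.24 (OL05G002624), 0.56 (OL01G000575) and 1.18 (OL03G002532), with adjusted p from 0.101 to 0.688.

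A gene whose description speaks of an oxygen sensor, OL03G000859, was also called, at 36.7, 67.2 and 46.0 CPM in +N split and 24.1, 14.2 and 19.4 CPM in +N roots (log2 FC 1.38, SE 0.24, adjusted p = 0.0241). OL03G000906, described as an oxygen transport protein, overlapped at 22.0, 42.8 and 24.1 CPM in +N split and 25.2, 14.2 and 18.5 CPM in +N roots. In both genes +N split replicate 2 was the highest and +N replicate 2 the lowest of the 6 libraries. The call of the first was lost without replicate 2 or 3 of either group. The 3 genes described as hypoxia-induced proteins had log2 fold changes of 0.01, 0.54 and 0.75 and no call. Those described as sucrose-cleaving enzymes had −0.81, 0.26 and 0.57 and no call.

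**Figure D2:**
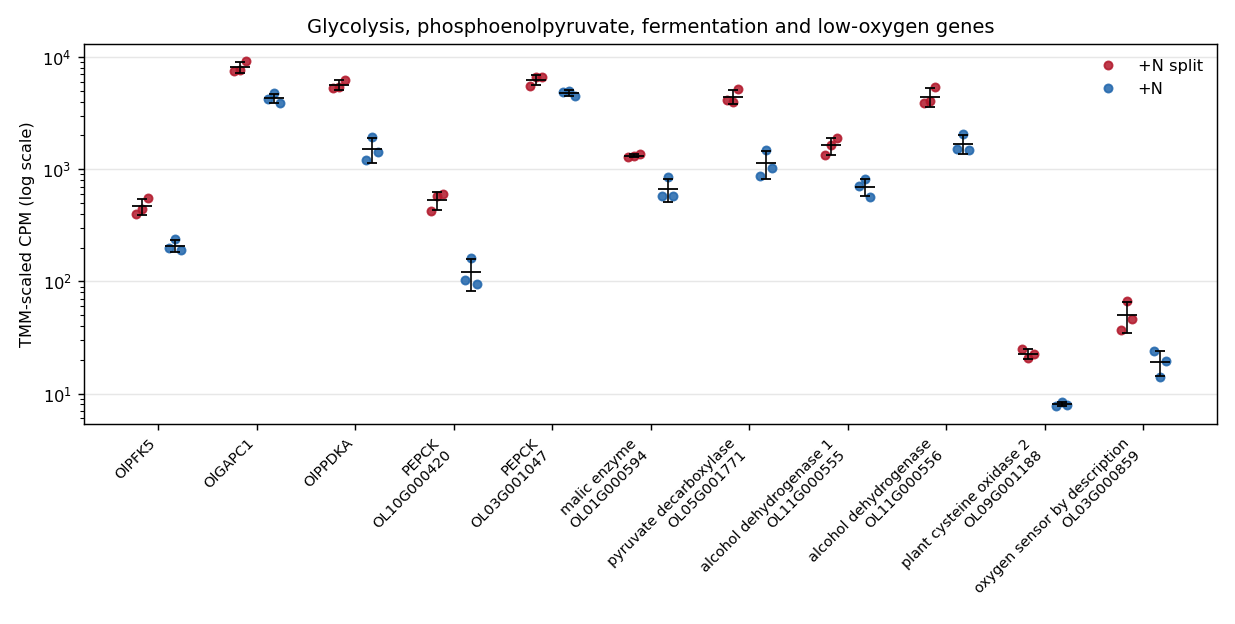
Normalized CPM on a log scale (vertical axis) of genes of glycolysis, phosphoenolpyruvate metabolism, fermentation and the low-oxygen response in the 3 +N split (red) and 3 +N (blue) libraries. PEPCK is phosphoenolpyruvate carboxykinase, points are libraries, and bars are mean ± SD. The 2 PEPCK genes shown differ in their gap, with log2 fold changes of 2.15 for OL10G000420 and 0.39 for OL03G001047.

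Trehalose 6-phosphate phosphatases remove trehalose 6-phosphate, a sugar signal of plants. Of 7 genes tested, 2 were higher, 6 had a log2 fold change above 0, and the median was 0.36. OL02G002516 had 67.5, 84.0 and 94.9 CPM in +N split and 31.4, 36.0 and 32.0 CPM in +N roots (log2 FC 1.31, SE 0.22, adjusted p = 0.019). OL06G000772 had 8.32, 7.46 and 5.98 CPM in +N split and 1.87, 2.01 and 1.22 CPM in +N roots (log2 FC 2.10, SE 0.30, adjusted p = 0.0116). Without +N split replicate 3 or without +N replicate 3 none of the 7 passed, and without +N replicate 2 there were 4. The tonoplast monosaccharide transporter OL10G000415 was the 1 called of 27 genes for sugar transport and starch, at 2.11, 2.75 and 2.21 CPM in +N split and 0.38, 0.58 and 0.72 CPM in +N roots (log2 FC 2.06, adjusted p = 0.0331). That list had a median of −0.07 with 13 of 27 above 0, and its call was lost without any one of the 6 libraries. Of 30 amino acid and peptide transporters none passed edgeR's test in either direction, 5 were above and 3 below 0 at an unadjusted p under 0.05, and DESeq2's Wald test called 1 higher. Their median was 0.02.

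Kinases and regulators were called in small numbers. SNF1-related kinases sense the energy state of the cell, and OL03G001268 had 322, 349 and 376 CPM in +N split and 246, 274 and 244 CPM in +N roots (log2 FC 0.46, adjusted p = 0.0464). It was 1 of 10 called among 151 protein kinases, whose median was 0.05, and it lost its call without any one of the 6 libraries. Of the other called kinases with the highest levels, the STYKc genes OL01G003046 and OL07G001872 had log2 fold changes of 0.52 and 0.65 and the DUF26 gene OL07G001608 one of 0.60. The wall-associated receptor kinase OL03G002460 had 12.4, 11.3 and 11.5 CPM in +N split and 4.56, 5.81 and 3.55 CPM in +N roots (log2 FC 1.34, SE 0.18, adjusted p = 0.0116). It was picked after its values were seen as the member with the smallest p. Without +N split replicate 3 or +N replicate 3 none of the 151 passed, and without any other 1 of the 6 libraries between 1 and 3 did.

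DUF581 is the older name of a family of small zinc-finger proteins that bind SNF1-related kinases. Of 9 such genes, chosen after the calls were known, 8 had a log2 fold change above 0 and 2 were called. OL06G000133 had 534, 479 and 569 CPM in +N split and 210.2, 288 and 235 CPM in +N roots (log2 FC 1.11, SE 0.17, adjusted p = 0.0132). OL02G002048 had 13.8, 15.8 and 18.4 CPM in +N split and 8.05, 9.82 and 8.70 CPM in +N roots (log2 FC 0.85, adjusted p = 0.0205). The call of the first was lost without +N split replicate 3 or +N replicate 3, and that of the second also without +N split replicate 2 or +N replicate 1.

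Of 129 transcription factors, 8 were higher and 0 lower, with a median of 0.18, and between 0 and 3 passed with single libraries left out. The AP2 genes OL01G001279 and OL01G001287 had log2 fold changes of 1.08 and 1.07 and levels within 15% of each other, so they may share reads. OL01G001287 stood at 143, 152 and 155 CPM in +N split and at 66.5, 79.4 and 67.7 CPM in +N roots (SE 0.21, adjusted p = 0.0382). Another AP2 gene, OL03G000575, had 584, 506 and 580 CPM in +N split and 323, 404 and 325 CPM in +N roots (log2 FC 0.67, adjusted p = 0.022). The other 5 were a Myb-like gene at 0.58 (OL02G003517), helix-loop-helix genes at 0.54 (OL07G002162) and 0.57 (OL07G000761), and a close pair of NAM genes at 0.52 (OL08G001846) and 0.60 (OL08G001858).

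Of 14 glutathione S-transferases 2 were called, OL10G001443 and OL10G001418, and the median was 0.00. OL10G001443 had 231, 471 and 295 CPM in +N split and 55.6, 130.5 and 71.9 CPM in +N roots (log2 FC 1.95, SE 0.39, adjusted p = 0.0448). OL10G001418 had 241, 531 and 330.5 CPM in +N split and 77.0, 142 and 80.0 CPM in +N roots (log2 FC 1.88, adjusted p = 0.0454). In both genes replicate 2 was the highest library of each group, and neither passed without +N split replicate 2 or 3 or +N replicate 1 or 3.

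Genes of defence and the early nodulins had large values without calls. Of 21 chitinase and pathogenesis-related genes, 0 passed edgeR's test, 5 were above 0 at an unadjusted p under 0.05, DESeq2's Wald test called 4 higher and edgeR's exact test on the 6 libraries 7. Their median was −0.00. The 10 that stand in the study's table had a median of 1.37, and the 11 outside it one of −0.33 with 0 above 0. As that table was drawn from these libraries, the contrast was partly fixed in advance. The class III chitinase OL05G000787 had 171, 533 and 309 CPM in +N split and 125, 108 and 159 CPM in +N roots (log2 FC 1.37, SE 0.59, adjusted p = 0.367), and its +N split libraries differed widely among themselves. Of 9 early nodulin genes 0 passed edgeR's test, with a median of 0.87, 3 above and 2 below 0 at an unadjusted p under 0.05, 1 called higher by DESeq2 and 3 by the exact test. OL06G000253 had 381, 418 and 439 CPM in +N split and 202, 283 and 129 CPM in +N roots (log2 FC 1.01, adjusted p = 0.167), without overlap.

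**Figure D3:**
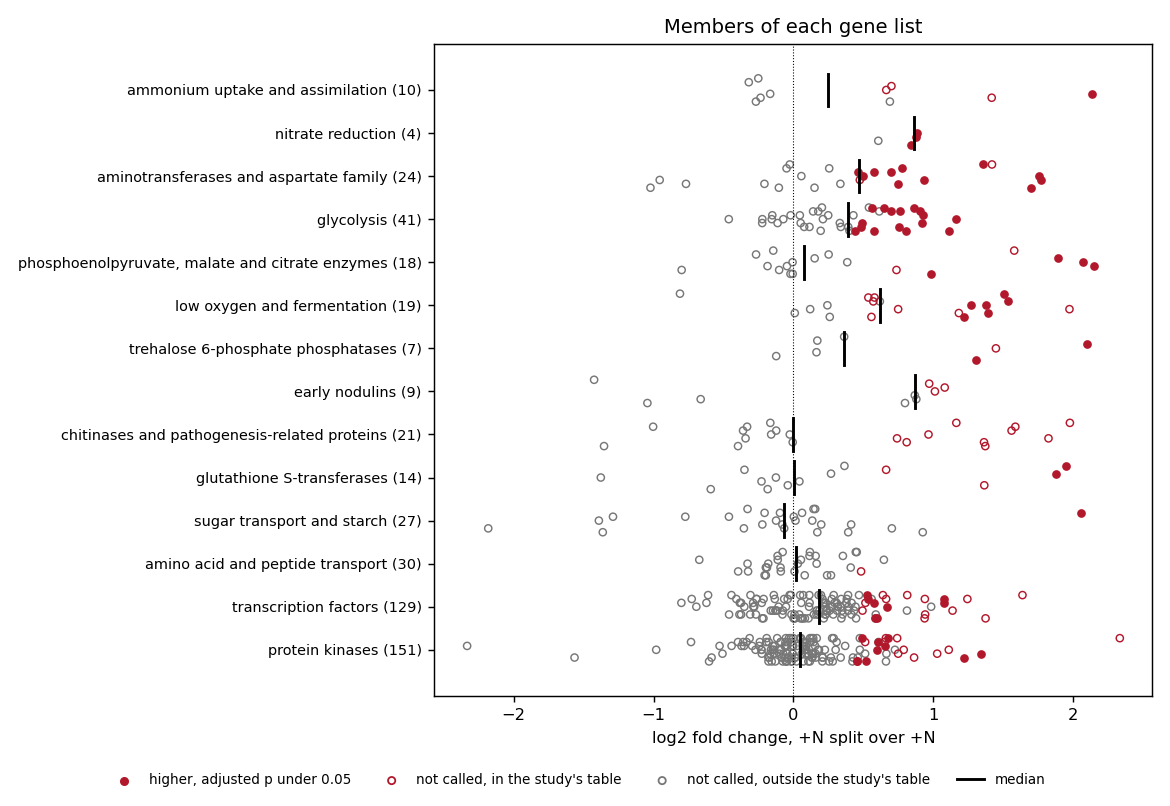
Log2 fold change of +N split over +N (horizontal axis) of every tested member of 14 gene lists (vertical axis, number of members in parentheses). Filled points passed the test, open red points are in the study's table of higher genes without a call here, grey points are outside it, and black bars are medians. Glycolysis, low oxygen and the aminotransferases have medians of 0.39, 0.62 and 0.47, and sugar and amino acid transport lie around 0.

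Called genes with neighbouring identifiers formed 9 runs of 2, 8 of them higher. Besides the nitrate reductases, the carboxykinases and the alcohol dehydrogenases, *OlASADH* was followed by a gibberellin-regulated protein gene, OL03G003220, at 0.68. Plant cysteine oxidase 2 lay 3 identifiers after a sodium and sulfate symporter gene, OL09G001185, at 0.91. The MatE gene OL05G002355, of a family of transporters that export organic acids and other compounds, had 727, 1055 and 833 CPM in +N split and 243, 327 and 248 CPM in +N roots (log2 FC 1.68, SE 0.24, adjusted p = 0.0132). It was followed by a phosphatidyl serine synthase gene, OL05G002357, at 0.69. The remaining runs were a testis-specific kinase and a DUF26 gene, OL07G001607 and OL07G001608, at 1.07 and 0.60, and OL09G000524, without a description, and an ATP-NAD kinase gene, OL09G000525, at 1.96 and 1.11. Whether such genes are neighbours on the chromosome was read from the identifiers alone. Without +N split replicate 2 or 3 or +N replicate 3, the MatE gene lost its call.

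Among the higher genes with the smallest p was also OL01G003964, described as acting in starch turnover, with 181, 184 and 215 CPM in +N split and 93.7, 107 and 92.7 CPM in +N roots (log2 FC 0.98, adjusted p = 0.00897). The called gene with the largest increase was OL02G003482, of the NmrA-like family. It had 132, 105 and 190.5 CPM in +N split and 10.3, 28.0 and 21.0 CPM in +N roots (log2 FC 2.84, SE 0.54, adjusted p = 0.0354). Both groups varied widely, and the gene passed in none of the 6 fits with a library left out (adjusted p from 0.0565 to 0.129).

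Of the 26 genes that were lower, 11 have a description, against 150 of the 170 higher genes. None of the 26 is a member of the 14 lists. Lists were drawn from descriptions, so genes without one could not enter them. Descriptions came from the study's tables of called genes as far as these could be read. Of the 170 higher genes 153 stand in its table of higher genes. The gap in descriptions and the lack of lower genes in the lists can thus follow from how descriptions were obtained. Of the 504 genes in these lists 64 were called higher, while 37 were below 0 at an unadjusted p under 0.05 and DESeq2 called 7 lower. Of all 25005 genes tested, 1499 were below 0 at that p and DESeq2 called 231 lower. The 6 of the 26 lower genes with the smallest p were OL03G001364, OL04G001322, OL05G002239, OL10G000700, OL01G001324 and OL12G000122. The one with a description is OL05G002239, of the aldehyde dehydrogenase family. It had 46.3, 42.5 and 43.6 CPM in +N split and 61.5, 96.0 and 83.7 CPM in +N roots (log2 FC −0.86, SE 0.14, adjusted p = 0.0166). OL04G001322 had 12.4, 10.3 and 11.6 CPM in +N split and 22.3, 21.0 and 18.0 CPM in +N roots (log2 FC −0.83, SE 0.12, adjusted p = 0.0116). OL10G000700 had 19.4, 18.8 and 19.4 CPM in +N split and 27.0, 28.2 and 28.6 CPM in +N roots (log2 FC −0.54, adjusted p = 0.017). In the last 2 genes the libraries of each group lay close together. The other 3 had log2 fold changes from −0.999 to −0.72.

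Peroxidases, which act on hydrogen peroxide in cell walls, gave 3 of the lower genes. OL04G002901 had 568, 440.5 and 498 CPM in +N split and 723, 795 and 831 CPM in +N roots (log2 FC −0.64, SE 0.13, adjusted p = 0.0479). OL01G001326 and OL01G001331 had log2 fold changes of −0.82 and −0.83. A cysteine synthase gene, OL04G000224, whose enzyme completes cysteine, had 61.5, 68.2 and 61.4 CPM in +N split and 105, 93.9 and 147 CPM in +N roots (log2 FC −0.86, adjusted p = 0.0454). These 4 genes were picked out by description after the calls were known. The other peroxidase genes were not counted, so the 3 calls are no result about that family. The 3 peroxidases lost their call without any one of the 6 libraries, and the cysteine synthase gene without any but +N replicate 2.

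The largest decreases came from +N libraries that differed among themselves. OL11G000966 had 6.11, 15.95 and 2.28 CPM in +N split and 29.9, 1080 and 111 CPM in +N roots (log2 FC −5.65, SE 1.16, adjusted p = 0.0479). OL07G002581, of glycosyl transferase family 8, had 16.4, 16.6 and 10.8 CPM in +N split and 19.2, 574 and 146 CPM in +N roots (log2 FC −4.08, adjusted p = 0.046). Replicate 2 was far the highest +N library in both, and without it the log2 fold changes were −3.12 and −2.49 (adjusted p = 0.0783 and 0.0858). Leaving out +N replicate 1 alone kept these calls. OL12G000529 had 3.03, 2.32 and 2.99 CPM in +N split and 55.8, 4.44 and 39 CPM in +N roots (log2 FC −3.57, adjusted p = 0.0479), here with +N replicate 2 the lowest of its group, and passed with that library left out (−4.08, adjusted p = 0.00451) and in no other of the 6 fits.

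The same partner difference was then taken in roots without ammonium of their own, as −N over −N split, which shares no library with +N split over +N. The labels do not say whether the −N split libraries are from the partners of the +N split roots sequenced, and for −N replicate 1 the treatment text describes a split pair while its title says −N, which was followed. In −N roots 684 genes were higher than in −N split roots, 2.74% of those tested, and 317 lower, 1.27%. Of the 170 genes higher in +N split roots, 99 were also higher in −N roots, 58.2% of them, 159 had a log2 fold change above 0 (46.9% of all genes), and their median was 0.60. Of the 26 lower genes, 22 were below 0 and 6 were called lower, with a median of −0.34. Without −N replicate 1, 370 genes were higher and 97 lower in −N roots, with 69 of the 170 called higher and 161 above 0, and 4 of the 26 called lower and 23 below 0.

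Several genes were at very different levels in the 2 pairs. *OlNADH-GOGAT2*, at 579 to 710 CPM in +N split roots, had 8.67, 8.11 and 19.4 CPM in −N and 2.03, 1.83 and 4.12 CPM in −N split roots (log2 FC 2.17, adjusted p = 0.00614). Its partner effect was nearly equal in supplied and deprived roots (difference −0.04, SE 0.47). *OlGS1;2* had 124, 132 and 123 CPM in −N and 90.8, 127 and 160 CPM in −N split roots, with a log2 fold change of 0.01 (adjusted p = 0.993). The alanine aminotransferase OL03G000581 had 11.2, 8.55 and 9.58 CPM in −N and 5.66, 7.62 and 8.23 CPM in −N split roots (log2 FC 0.45, adjusted p = 0.165). For neither of these 2 did the difference between the pairs pass (0.66 and 0.91, adjusted p = 0.4 and 0.183).

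In the low-oxygen list the deprived pair had more calls, as it had over all genes (684 higher against 170 in the supplied pair). The direct test of the difference called 1 of the 19 genes, OL01G000575. Of the 19, 12 were higher in −N than in −N split roots, with a median of 1.38, against 0.62 for +N split over +N. Of the phosphoenolpyruvate list, the carboxykinase OL10G000420 had 192, 129.5 and 249 CPM in −N and 12.38, 12 and 22.91 CPM in −N split roots (log2 FC 3.59, adjusted p = 0.000115), and the difference between the pairs missed the threshold (−1.44, adjusted p = 0.284). The early nodulins, none of them called in supplied roots, gave 6 calls of 9 in deprived roots with a median of 3.68. Their summed level was highest in −N replicate 1, whose labels conflict, at 1126 CPM. Replicates 2 and 3 of −N had 398 and 628 CPM, and −N split libraries 51.1 to 75.4 CPM. List counts of the deprived pair without −N replicate 1 are not given here. OL06G000253 had 559, 251 and 383 CPM in −N and 25.9, 34.9 and 43.5 CPM in −N split roots. For that gene the difference between the pairs was −2.50 and missed the threshold (adjusted p = 0.0662), and edgeR's test of the difference called none of the 9, with 6 at an unadjusted p under 0.05 and 6 called by DESeq2.

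**Figure D4:**
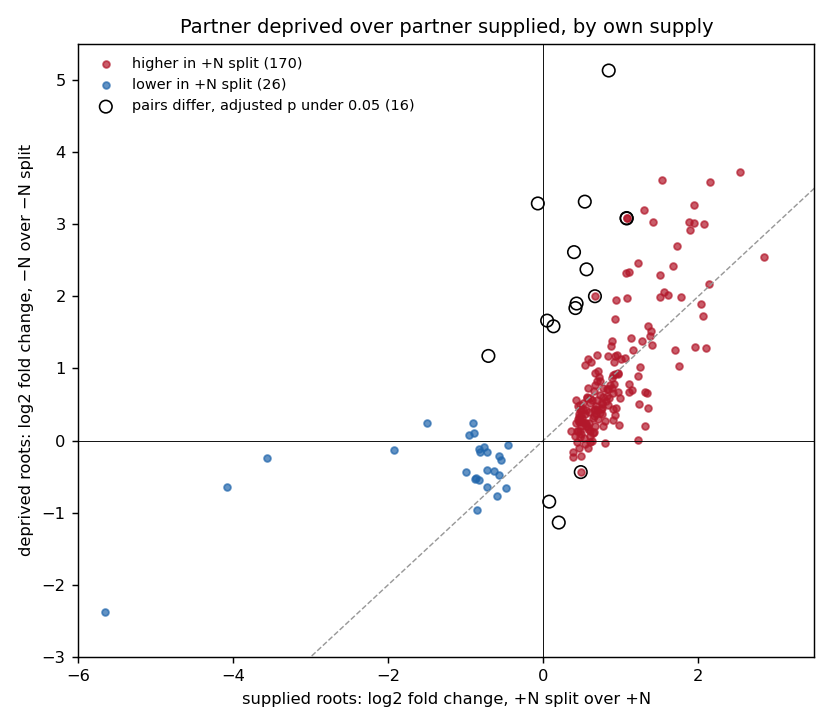
Log2 fold change of +N split over +N in supplied roots (horizontal axis) and of −N over −N split in deprived roots (vertical axis) for the 170 higher (red) and 26 lower (blue) genes. Black rings mark the 16 genes whose partner effect differed between the pairs, and the dashed line marks equal effects. Of the red points 159 lie above 0 on the vertical axis, and 12 of the 16 rings are genes without a call in supplied roots.

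A direct test of the difference between the partner effects called 16 genes, 0.0640% of those tested, with 2304 at an unadjusted p under 0.05. Of the 16, 13 had the more negative effect in supplied roots and 3 the more positive. Among the 170 higher genes 4 were called, and among the 26 lower genes 0. With each of the 12 libraries left out in turn, 7 of the 16 were called in every fit. Without −N replicate 1 the test called 9 genes. For 3 of the 4, all AP2 genes, the increase was larger in deprived roots. OL03G000575 had 474, 387 and 493 CPM in −N and 105, 117 and 116 CPM in −N split roots, an increase of 2.001 against 0.67 in supplied roots (difference −1.33, SE 0.16, adjusted p = 0.00874), and it was called with each library left out.

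The pair OL01G001279 and OL01G001287 differed by −2.003 and −2.011 (adjusted p = 0.0396 and 0.0374), calls that held in 1 and 2 of the 12 fits with a library left out. Their −N split levels, 6.81 to 10.2 CPM, were the lowest of the 4 groups. The fourth gene ran the other way. OL02G000468, a glyceraldehyde 3-phosphate dehydrogenase, had 190.1, 184 and 204 CPM in +N split and 139.5, 141 and 132 CPM in +N roots, which gives 0.48 on the log2 scale. In −N it had 82.5, 86.4 and 72.6 CPM and in −N split 107, 112 and 108 CPM, which gives −0.44 (difference 0.92, SE 0.11, adjusted p = 0.00874). Partner deprivation thus went with a higher level in supplied and a lower level in deprived roots, both past the threshold (adjusted p = 0.0181 and 0.00871).

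In the cysteine oxidase family all 5 genes were higher in −N than in −N split roots, by 0.94 to 3.62, and the difference between the pairs passed for 1. OL01G000575 had 161, 133 and 187 CPM in −N and 27.9, 28.2 and 36.8 CPM in −N split roots, against 155, 146 and 176 CPM in +N split and 104, 120 and 100.1 CPM in +N roots (difference −1.82, SE 0.20, adjusted p = 0.00537). Its −N split libraries stood below those of the other 3 groups, and its call held in all 12 fits. For plant cysteine oxidase 2 the difference was −0.80 (adjusted p = 0.258), with 10.4, 10.1 and 13.1 CPM in −N and 1.81, 2.19 and 2.80 CPM in −N split roots.

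**Figure D5:**
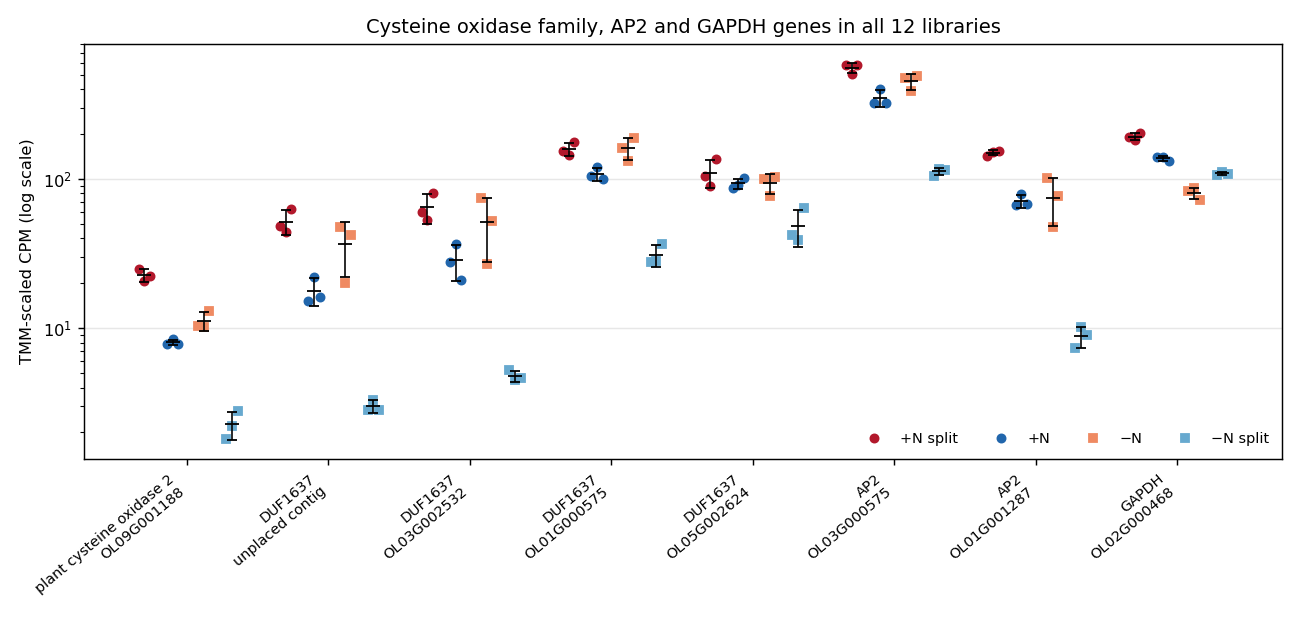
Normalized CPM on a log scale (vertical axis) of the 5 genes of the cysteine oxidase family, 2 AP2 genes and 1 glyceraldehyde 3-phosphate dehydrogenase (GAPDH) in the 3 libraries of each of the 4 groups. Points are libraries, bars are mean ± SD, and the gene labelled unplaced contig is unmappedContigsG001274. In the cysteine oxidase and AP2 genes −N split is the lowest group, and in the GAPDH gene −N is.

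Marker lists were set beside these results. Of 5 root markers 2 had a log2 fold change above 0, with a median of −0.14. Their sum of 147 to 181 CPM in +N split and 129 to 151 CPM in +N libraries holds the ammonium transporter OL02G002258, which made up 40.1 to 76.2 CPM in +N split and 17.1 to 24.0 CPM in +N. Of the others, the root isozyme of ferredoxin-NADP reductase (OL03G003355) was at 67.2 to 74.5 CPM in +N split and 71.7 to 87.7 CPM in +N and root cap protein 2 at 0.97 to 1.88 CPM in +N split and 1.34 to 2.02 CPM in +N. The 32 green tissue markers, of which none was at 0 in all libraries, summed to 1702 to 4124 CPM in +N split and 2697 to 3524 CPM in +N libraries. Of them 0 passed edgeR's test or DESeq2's, 1 was above and 2 below 0 at an unadjusted p under 0.05, and 2 in all had a log2 fold change above 0, with a median of −0.17. The highest of these sums was that of +N split replicate 3. In the deprived pair 28 of the 32 were above 0 with a median of 0.50, 2 were called higher and 1 lower, and the sums were 1693, 2445 and 2486 CPM in −N and 2398, 871 and 755 CPM in −N split libraries. Of 8 heat stress genes 7 were above 0 and 1 was called, OL03G001117 at 0.96 (adjusted p = 0.0239). The share of counts in the top 10 genes was 5.45% to 6.43% in +N split and 4.19% to 4.30% in +N libraries. The part of these markers and of this share in the results was not tested.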

How the data were processed

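Root RNA was sequenced from polyadenylated-RNA libraries of 3 roots per group. The authors mapped the reads with HISAT2 to the genome of the O. longistaminata Information Resource and counted them per gene model with featureCounts. They deposited a table of raw counts, used here, and per-library log2 CPM. The deposited log2 values equal those edgeR gives from the counts with a prior count of 2 (largest difference 4.99e-09), and they were not tested. For tool versions, strand setting, the build's version and the counting of like copies, the sources used here give nothing.

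The analysis ran in R 4.3.3 on the counts with edgeR 4.0.16: filterByExpr at its default (minimum count 10, minimum total count 15), TMM factors of 0.92 to 1.07, a mean per group over 12 libraries of 39071838 to 56252511 reads (8 residual degrees of freedom), and two-sided glmQLFTest with Benjamini-Hochberg adjustment over 25005 genes. Counting error is small at this depth. Replicates differed by more than sampling noise (chi-square 22.2 to 53.8 per gene), so all 12 were kept as separate samples. Alternatives were DESeq2 1.42.0 (Wald test, or its size factors in edgeR), other filters, edgeR's exact and quasi-likelihood tests on the 6 libraries, the replicate number as a block, and each library left out. Code was tested on simulated data.

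Named genes are the 6 higher and 6 lower with the smallest p, up to 4 called members with the highest mean CPM per list, genes the study names with an identifier, and runs of called genes at most 3 identifiers apart. Members and lists were chosen with earlier results of these data known. The study's tables were read in part, so lists can lack genes.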

Additional observations from a re-analysis of the deposited data

Results flagged for a closer look

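The partner effect differed between supplied and deprived roots, by edgeR's quasi-likelihood test of the difference itself, for 16 genes (adjusted p from 0.00537 to 0.0402). Each difference is the log2 fold change of +N split over +N minus that of −N over −N split. Those named in the results were the AP2 genes OL01G001279 (−2.00), OL01G001287 (−2.01) and OL03G000575 (−1.33), the cysteine oxidase family gene OL01G000575 (−1.82) and the glyceraldehyde 3-phosphate dehydrogenase OL02G000468 (0.92).

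The widest difference belonged to OL03G003255, at −4.29. It had 79.2, 120.5 and 95.3 CPM in +N split and 44.4, 77.2 and 42.6 CPM in +N roots, and 127, 82.4 and 132 CPM in −N and 4.93, 3.16 and 1.63 CPM in −N split roots. Its −N split libraries thus stood apart from all others. The DUF581 gene OL06G002570 (−1.42) had 63.0, 60.3 and 61.5 CPM in +N split and 45.1, 49.6 and 43.9 CPM in +N roots. Its deprived pair was called, with a log2 fold change of 1.84, and its supplied pair was not (0.41, adjusted p = 0.0844).

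The gene for the small chain of RuBisCO, OL02G000345, a green tissue marker, differed by −3.36, with 24.0, 36.0 and 42.4 CPM in +N split and 34.1, 42.5 and 30.9 CPM in +N roots, groups that overlapped. In −N it had 21.56, 27.95 and 30 CPM and in −N split 4.89, 1.35 and 1.86 CPM. The differences of the other genes were −1.88 for the L-gulonolactone oxidase gene OL02G000183, −1.45 for the ShK domain gene OL03G003498, −1.61 for OL01G003312, −2.22 for OL04G002533, −2.78 for OL07G001710 and −1.47 for unmappedContigsG000105. Those of OL07G001068 and OL08G000568 were positive, at 1.34 and 0.92. With each of the 12 libraries left out in turn, OL01G000575, OL02G000468, OL03G000575, OL03G003255, OL06G002570, OL07G001710 and unmappedContigsG000105 were called in every fit, and the other genes in 1 to 4 of 12.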

How the results depend on the processing

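In all 19 alternatives the 170 higher genes kept log2 fold changes above 0 and the 26 lower genes below 0. With groups that did not overlap in any of these genes, that outcome was nearly fixed in advance. The number of calls moved. DESeq2's Wald test called 568 higher, 231 lower and 333 genes whose partner effect differed, and edgeR's exact test on the 6 supplied libraries 441 higher and 121 lower. The quasi-likelihood test on those 6 libraries called 151 higher and 4 lower genes, of which 111 and 3 were also called in the main fit. With single libraries left out, the higher genes ranged from 6 (without +N split replicate 3) to 179 (without −N replicate 2), the lower genes from 0 (without +N split replicate 3, with 1096 at an unadjusted p under 0.05) to 39 (without +N replicate 1), and the genes whose partner effect differed from 7 (without +N replicate 2 or −N split replicate 2) to 59 (without −N replicate 2). Without −N replicate 1, an alternative chosen after seeing the data, 370 genes were higher and 97 lower in −N than in −N split roots. The cause was not tested. DESeq2's size factors and other filters on low counts changed none of these counts by over 1.5 times. For named genes, 1158 values kept their side of the threshold, 286 lost it and 19 gained it, and none reversed.

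With the replicate number as a block the test called 150 higher and 13 lower genes, of which 128 and 9 were also called without it, and 12 genes whose partner effect differed. Deviations of same-numbered +N split and +N libraries correlated at 0.187, 0.0704 and 0.176, each library best with its own number. That is a hint from the data, and the numbers were not taken as pairs.

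With 3 roots a group the number of calls fell most without +N split replicate 3 or +N replicate 3, to 6 and 7 higher genes, so single-gene calls close to the threshold are uncertain.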
